A study of Homo sapiens with 4 samples.

Results

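The genes described here encode the enzymes, sensors and carriers by which a cell makes cholesterol and fatty acids. They were measured by RNA sequencing in K562, an established human line from chronic myeloid leukaemia that carries the BCR-ABL1 fusion and expresses erythroid genes. The members were given as a list of 35 gene symbols that spans the route, and each was taken as the sum of its transcripts in the deposited table of TPM, a length-corrected abundance that sums to the same value for each library. All 35 were found among the 11213 gene names of that table.

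The shPHF8 group held 2 libraries of K562 cells transduced with lentivirus carrying short hairpin RNA against PHF8, a histone lysine demethylase of the JmjC family. The shControl group held 2 libraries of K562 cells transduced with a control hairpin. Both groups shared the exposure to polybrene at 5 µg per ml during transduction and the selection with puromycin at 2 µg per ml started 72 h later, and both were grown in medium with serum, which carries cholesterol and fatty acids of its own. No time of RNA collection is used here. The labels do not say whether the replicates of a group came from separate cultures, so the p-values below measure the spread between these libraries, which may be technical. Nor do they settle whether the shPHF8 libraries are replicates of 1 hairpin or carry different hairpins: the titles number them as shPHF8-1 and shPHF8-2, while the protocol names shPHF8-1. If the hairpins differ, the spread within the shPHF8 group also holds the difference between hairpins.

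PHF8 itself had 6.06 and 6.42 TPM in shPHF8 libraries, against 25.9 and 22.5 TPM in shControl libraries. The mean in shPHF8 libraries was 25.8% of that in shControl libraries, with a log2 fold change of -1.80 ± 0.16 (SE, n = 2 each; limma, Benjamini-Hochberg adjusted p = 0.0643). The limma fit was run on log2(TPM + 1) for 10972 genes, those averaging 1 TPM or more. Over all of them, 0 genes had an adjusted p under 0.05 (limma; smallest adjusted p = 0.0554), while 2414 genes, or 22.0%, had an unadjusted p under 0.05. A gene with such a p is said below to be called; with 2 libraries a group this is a description of size against spread, and the unadjusted p itself is not printed. Of all genes tested, 9.90% were higher and 12.1% were lower in shPHF8 libraries by that call. No member therefore passed the test over all genes, and the members below are read against those percentages. The median log2 fold change of all genes tested was -0.02. Between the shPHF8 libraries 5.48% of genes were more than 2-fold apart, and between the shControl libraries 5.93% were.

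The erythroid identity of the line was present in all 4 libraries, with the 7 erythroid markers of the list summing to 9695 and 9157 TPM in shPHF8 libraries and to 6375 and 6637 TPM in shControl libraries. The erythroid sum was thus higher in both shPHF8 libraries and consisted mostly of fetal and embryonic globin, HBG1 (which may share reads with its near-identical copy) and HBE1. GATA1, the erythroid transcription factor on the same list, was lower in both shPHF8 libraries, with 311 and 307 TPM, against 339 and 343 TPM in shControl libraries (log2 fold change -0.14; limma, adjusted p = 0.255). Of 8 granulocyte and monocyte markers 4 were listed, and those summed to 82.5 and 77.9 TPM in shPHF8 libraries, against 141 and 159 TPM in shControl libraries. Of 5 lymphocyte markers 2 were listed, with CD3D at 14.9 and 11.0 TPM in shPHF8 libraries and 29.6 and 31.5 TPM in shControl libraries. Of 5 stromal and endothelial markers 2 were listed, both of them collagen genes. COL1A2 had 1.79 and 1.65 TPM in shPHF8 libraries and 9.37 and 11.6 TPM in shControl libraries, while COL1A1 had 1.63 and 0.866 TPM in shPHF8 libraries and 0.505 and 1.42 TPM in shControl libraries, and its groups overlapped. None of the 5 liver and fat markers was listed, although liver and fat are the tissues in which these pathways are most active. The part that the marker shifts play in the values below was not tested. In a bulk library, fewer cells of a type and less RNA per cell cannot be told apart.

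As background, cholesterol is built from acetyl-CoA through mevalonate and farnesyl pyrophosphate to squalene, which is closed into lanosterol and trimmed to cholesterol. Fatty acids are built from the same acetyl-CoA by way of malonyl-CoA, then activated as acyl-CoA and lengthened and desaturated in the endoplasmic reticulum. Both routes are driven by SREBP transcription factors. These are held in the endoplasmic reticulum by SCAP and INSIG proteins when sterols are plentiful, and are cut and sent to the nucleus when sterols run low, where they bind sterol regulatory elements, often next to sites for the factors NF-Y and SP1.

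SREBP targets are recognised by short motifs near their start sites, so promoters of members on which the results turn are shown. The set of RefSeq promoters used here, on build GRCh38.p14, held 31 of the 35 members. It lacked ACAT2, FDFT1, SQLE and FASN, so the shares below leave out these members, of which ACAT2, FDFT1 and FASN were called. The 250 bases upstream of each start were searched on both strands. The sterol regulatory element was searched as TCACNCCAC, where N is any base, the NF-Y site as CCAAT and the SP1 site as GGGCGG; matches of different motifs may share bases at their ends. The element was found in 2 of 31 members (6.45%), SREBF2 and ACSL1. It was found in 1.09% of all 27305 genes of the promoter set, and in 1.16% of the 8681 of those that are in the TPM table. CCAAT was found in 22 of 31 members (71.0%), against 37.0% of all genes and 42.2% of those in the TPM table. GGGCGG was found in 29 of 31 members (93.5%), against 46.2% of all genes and 75.4% of those in the TPM table. A gene with several RefSeq promoters was counted if any of them held the motif, so these shares also depend on the number of starts per gene. A match is a description of the letters and not a bound site. Only the letters given were searched, in 250 bases, so lack of a match does not show that a promoter lacks the element. Capitals mark each motif in either orientation, and each sequence runs 5′ to 3′ on the strand of its gene. ELOVL6 (chr4:110198616-110198865, minus strand), FADS1 (chr11:61817004-61817253, minus strand) and ELOVL5 (chr6:53348951-53349200, minus strand) are shown as the members with the largest increase, the same call under every setting tried, and a lower level in shPHF8 libraries. SREBF2 (chr22:41832855-41833104, plus strand), which encodes an SREBP, is shown as one of the promoters that held the sterol regulatory element. ACACA is shown at the start used by its transcript ACACA-009 (chr17:37359097-37359346, minus strand; the RefSeq start lay 20 bases from that of the transcript) and at that of ACACA-002 (chr17:37299768-37300017, minus strand; the same start), since these transcripts differed between the groups.
ELOVL6: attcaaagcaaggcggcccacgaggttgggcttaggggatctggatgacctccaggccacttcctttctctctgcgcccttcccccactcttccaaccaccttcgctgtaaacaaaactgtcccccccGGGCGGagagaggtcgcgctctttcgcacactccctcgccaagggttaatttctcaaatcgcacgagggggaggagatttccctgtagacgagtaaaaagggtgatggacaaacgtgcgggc
FADS1: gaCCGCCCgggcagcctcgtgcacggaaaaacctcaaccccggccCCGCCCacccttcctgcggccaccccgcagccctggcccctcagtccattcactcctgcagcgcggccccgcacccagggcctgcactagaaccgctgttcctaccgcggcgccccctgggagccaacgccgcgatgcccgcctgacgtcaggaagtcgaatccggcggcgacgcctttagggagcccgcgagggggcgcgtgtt
ELOVL5: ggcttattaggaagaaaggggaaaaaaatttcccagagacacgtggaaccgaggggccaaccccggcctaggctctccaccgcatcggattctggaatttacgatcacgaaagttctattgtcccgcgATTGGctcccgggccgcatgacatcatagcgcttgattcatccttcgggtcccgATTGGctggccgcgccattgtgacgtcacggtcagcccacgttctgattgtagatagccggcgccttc
SREBF2: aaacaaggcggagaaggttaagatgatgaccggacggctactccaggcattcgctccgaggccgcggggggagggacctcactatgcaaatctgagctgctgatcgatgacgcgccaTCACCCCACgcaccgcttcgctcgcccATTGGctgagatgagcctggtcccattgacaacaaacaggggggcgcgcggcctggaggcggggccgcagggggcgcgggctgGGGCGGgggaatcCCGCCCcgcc
ACACA-009: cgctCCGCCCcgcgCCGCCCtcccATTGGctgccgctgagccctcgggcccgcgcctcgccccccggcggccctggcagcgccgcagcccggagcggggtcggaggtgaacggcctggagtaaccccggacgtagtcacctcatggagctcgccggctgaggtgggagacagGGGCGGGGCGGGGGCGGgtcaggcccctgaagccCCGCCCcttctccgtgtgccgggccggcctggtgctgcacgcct
ACACA-002: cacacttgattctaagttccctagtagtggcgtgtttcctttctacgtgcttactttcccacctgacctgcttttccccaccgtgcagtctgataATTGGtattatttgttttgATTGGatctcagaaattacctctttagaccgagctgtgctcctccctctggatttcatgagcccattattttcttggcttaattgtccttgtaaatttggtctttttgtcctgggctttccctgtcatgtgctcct

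No member had an adjusted p under 0.05 (limma; smallest adjusted p = 0.0698), and the list held about the share of called genes that all genes did. Of the called members, 6 were higher (ACAT2, CYP51A1, STARD4, FASN, ELOVL6 and FADS1) and 3 were lower (FDFT1, ELOVL5 and ACSL3) in shPHF8 libraries, and 26 were neither. Of all genes, 9.90% were called higher and 12.1% lower. More called members were thus higher than lower, while among all genes more were lower. With 9 called members this is a description. The 9 called members are 25.7% of the list, near the 22.0% of all genes, and the calls of each role below are to be read against that same share. The same holds for the groups that did not overlap. Of the members, 11 were higher in both shPHF8 libraries than in both shControl libraries and 9 were lower, together 20 of 35, where 26.0% of all genes were higher, 29.3% were lower and 55.3% were one or the other. The members' median log2 fold change was 0.03, against -0.02 for all genes tested. Their summed level was 4284 and 4449 TPM in shPHF8 libraries and 4062 and 4338 TPM in shControl libraries, on average 0.437% and 0.420% of all TPM, and these ranges overlap. The counts changed when a library was left out. That also leaves a group of 1 and changes the calls over all genes, so it cannot show that the members rest on 1 library. The members' median log2 fold change was then -0.0063 to 0.026. Where a call is said below to be lost or gained without a library, the log2 fold change beside it is the value to read. Without the mean-variance trend of limma, FDFT1, CYP51A1 and ELOVL5 were not called and TM7SF2 was called lower, which made 5 higher and 2 lower.

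**Figure D1:**
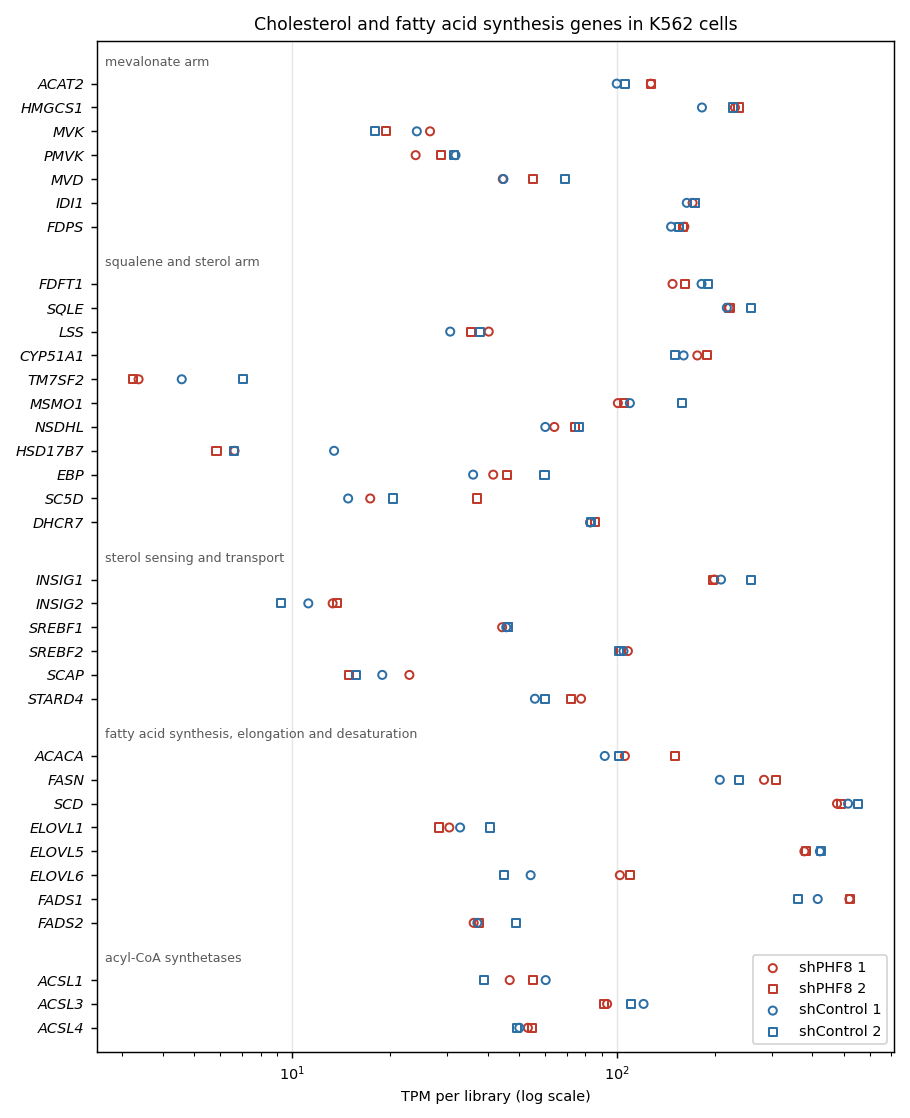
TPM of each member in each of the 4 libraries, on a log axis, with shPHF8 libraries in red and shControl libraries in blue, grouped by role. ELOVL6 shows the widest gap between the groups, with 102 and 109.5 TPM in shPHF8 libraries against 54.3 and 44.9 TPM in shControl libraries, while the 4 points of SREBF1, and those of SREBF2, lie close together.

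**Figure D2:**
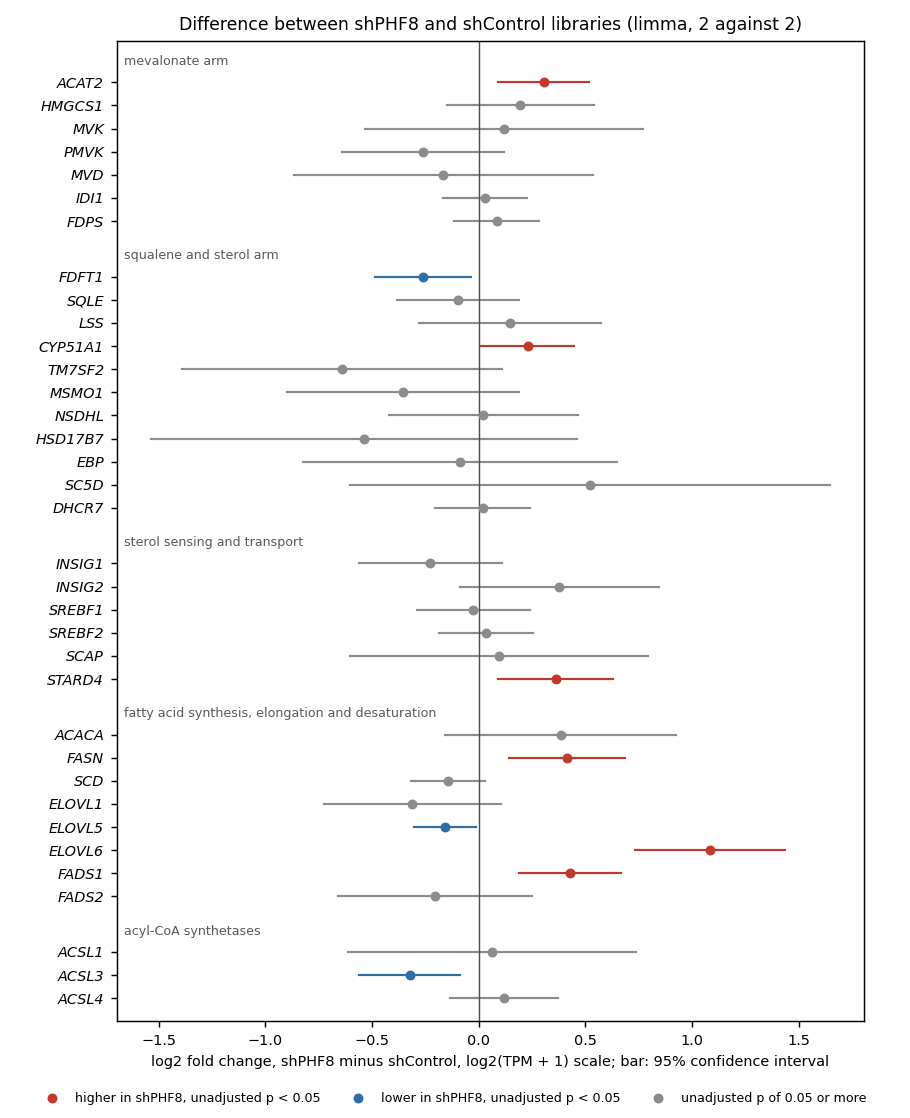
Log2 fold change of each member, shPHF8 minus shControl in log2(TPM + 1), with its 95% confidence interval from limma (2 libraries against 2). Members with an unadjusted p under 0.05 are coloured, 6 of them to the right of 0 and 3 to the left.

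The mevalonate arm has 7 members, of which 1 was called higher and 0 were called lower. Its summed level was 786 and 802 TPM in shPHF8 libraries and 695 and 782 TPM in shControl libraries. ACAT2, which joins acetyl-CoA molecules into acetoacetyl-CoA at the head of the route, had 127 and 127 TPM in shPHF8 libraries, against 99.9 and 106 TPM in shControl libraries. The groups did not overlap, and the log2 fold change was 0.31 ± 0.08 (SE; limma, adjusted p = 0.147). The call was lost without shPHF8 replicate 1 and without shPHF8 replicate 2, where the log2 fold change was 0.31 and 0.31. Exons of ACAT2 overlap those of TCP1 and SOD2 on the other strand, by 397 and 1106 bases in GENCODE release 29, and the strandedness of the libraries is not given in the sources used here, so reads of these genes may not be told apart. TCP1 had 565 and 575 TPM in shPHF8 libraries, against 618 and 624 TPM in shControl libraries, a difference in the other direction. SOD2 had 47.2 and 30.8 TPM in shPHF8 libraries, against 43.4 and 47.1 TPM in shControl libraries.

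HMGCS1, which makes HMG-CoA, had 231 and 237 TPM in shPHF8 libraries, against 183 and 228 TPM in shControl libraries. The groups did not overlap, but the gap rested on shControl replicate 1, and the gene was called without shControl replicate 2 (log2 fold change 0.35) but not with all 4 libraries (0.20, limma, adjusted p = 0.434). MVK, the mevalonate kinase, had 26.6 and 19.4 TPM in shPHF8 libraries, against 24.2 and 18.0 TPM in shControl libraries, and the groups overlapped. Its exons overlap those of MMAB on the other strand by 294 bases. PMVK, the next kinase, had 24.0 and 28.8 TPM in shPHF8 libraries, against 31.9 and 31.6 TPM in shControl libraries, lower in both shPHF8 libraries but not called (limma, adjusted p = 0.359). MVD, the decarboxylase that makes isopentenyl pyrophosphate, had 44.6 and 55.2 TPM in shPHF8 libraries, against 44.8 and 69.4 TPM in shControl libraries. IDI1, the isomerase, had 171 and 174 TPM in shPHF8 libraries, against 164 and 174 TPM in shControl libraries. MVD and IDI1 overlapped between the groups. FDPS, which makes farnesyl pyrophosphate, had 161 and 159.6 TPM in shPHF8 libraries, against 147 and 156 TPM in shControl libraries. It was not called (limma, adjusted p = 0.541), and FDPS has pseudogene copies that may share its reads, so its level is uncertain.

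The squalene and sterol arm has 11 members, of which 1 was called higher and 1 called lower. Its summed level was 904 and 967 TPM in shPHF8 libraries and 914 and 1051 TPM in shControl libraries. FDFT1, the squalene synthase that commits farnesyl pyrophosphate to sterols, had 148 and 163 TPM in shPHF8 libraries, against 182 and 190.3 TPM in shControl libraries. It was lower in both shPHF8 libraries, with a log2 fold change of -0.26 ± 0.08 (SE; limma, adjusted p = 0.192). The call was lost without shPHF8 replicate 1, without shControl replicate 1 and without shControl replicate 2, where the log2 fold change was -0.19, -0.29 and -0.23. CYP51A1, the cytochrome P450 that demethylates lanosterol, had 177 and 189 TPM in shPHF8 libraries, against 161 and 151 TPM in shControl libraries. It was higher in both shPHF8 libraries, with a log2 fold change of 0.23 ± 0.08 (SE; limma, adjusted p = 0.212). The call was lost when any of the 4 libraries was left out, with a log2 fold change of 0.28 without shPHF8 replicate 1, 0.18 without shPHF8 replicate 2, 0.27 without shControl replicate 1 and 0.19 without shControl replicate 2.

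SQLE, the squalene epoxidase, had 222 and 222 TPM in shPHF8 libraries, against 218 and 259 TPM in shControl libraries. LSS, which closes the epoxide into lanosterol, had 40.3 and 35.5 TPM in shPHF8 libraries, against 30.7 and 37.8 TPM in shControl libraries. In both genes the groups overlapped, and SQLE was called lower only without shControl replicate 1 (log2 fold change -0.22, against -0.10 with all 4 libraries). TM7SF2, a sterol reductase, was the lowest member of the arm, at 3.37 and 3.24 TPM in shPHF8 libraries, against 4.57 and 7.08 TPM in shControl libraries. MSMO1, a methylsterol oxidase, had 101 and 105 TPM in shPHF8 libraries, against 109.7 and 159 TPM in shControl libraries. Both were lower in both shPHF8 libraries, but the shControl libraries themselves were far apart. Neither was called by the fit to all 4 libraries, where the log2 fold change was -0.64 for TM7SF2 and -0.35 for MSMO1; both were called without shControl replicate 1, at -0.91 and -0.62.

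NSDHL, a sterol dehydrogenase, had 64.2 and 74.1 TPM in shPHF8 libraries, against 60.2 and 76.6 TPM in shControl libraries. HSD17B7, the ketosteroid reductase of the same step, had 6.65 and 5.85 TPM in shPHF8 libraries, against 13.5 and 6.62 TPM in shControl libraries. HSD17B7 has a pseudogene copy, so its level is uncertain, and its high value stood in shControl replicate 1 alone. It was called lower without shControl replicate 2, at a log2 fold change of -0.999. EBP, the sterol isomerase, had 41.6 and 45.9 TPM in shPHF8 libraries, against 36.1 and 59.9 TPM in shControl libraries, and was called lower without shControl replicate 1 (log2 fold change -0.45). SC5D, a sterol desaturase, had 17.4 and 37.1 TPM in shPHF8 libraries, against 14.9 and 20.4 TPM in shControl libraries, and shPHF8 replicate 2 stood above the other 3 libraries. It was called higher without shPHF8 replicate 1, at a log2 fold change of 1.05. DHCR7, which makes cholesterol from its last precursor on one branch, had 82.7 and 85.8 TPM in shPHF8 libraries, against 82.9 and 83.4 TPM in shControl libraries. In NSDHL, HSD17B7, EBP, SC5D and DHCR7 the groups overlapped. DHCR7 was the steadiest gene of the 5, with a 95% confidence interval of -0.20 to 0.24 for its log2 fold change.

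The sterol sensing and transport group has 6 members, of which 1 was called higher and 0 were called lower. Its summed level was 466 and 448 TPM in shPHF8 libraries and 446 and 492 TPM in shControl libraries. SREBF1, which encodes the SREBP best known for fatty acid genes, had 44.4 and 46.1 TPM in shPHF8 libraries, against 45.7 and 46.3 TPM in shControl libraries. SREBF2, which encodes the SREBP best known for sterol genes, had 108 and 103 TPM in shPHF8 libraries, against 105 and 101 TPM in shControl libraries. Both overlapped between the groups, with a 95% confidence interval for the log2 fold change of -0.29 to 0.24 for SREBF1 and -0.18 to 0.25 for SREBF2. RNA levels do not report how much SREBP protein was cut and active. SCAP, the escort protein of SREBP, had 23.0 and 14.9 TPM in shPHF8 libraries, against 19.0 and 15.7 TPM in shControl libraries, again overlapping.

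INSIG1, the anchor of SCAP and itself an SREBP target, had 199.5 and 198 TPM in shPHF8 libraries, against 209 and 259 TPM in shControl libraries. INSIG2, its paralogue, had 13.3 and 13.8 TPM in shPHF8 libraries, against 11.2 and 9.25 TPM in shControl libraries. INSIG1 was lower and INSIG2 higher in both shPHF8 libraries, with log2 fold changes of -0.23 and 0.38, but neither was called (limma, adjusted p = 0.366 for INSIG1 and adjusted p = 0.296 for INSIG2). INSIG1 was called lower without shControl replicate 1, at a log2 fold change of -0.38. STARD4, which carries cholesterol between membranes, had 77.6 and 72.1 TPM in shPHF8 libraries, against 56.0 and 60.1 TPM in shControl libraries. The groups did not overlap, and the log2 fold change was 0.36 ± 0.10 (SE; limma, adjusted p = 0.161). The call was lost without shPHF8 replicate 1, without shPHF8 replicate 2 and without shControl replicate 1, at log2 fold changes of 0.31, 0.41 and 0.31.

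The fatty acid genes held the largest difference among the members, that of ELOVL6. Of 8 members, 3 were called higher and 1 called lower, and in 7 of 8 the groups did not overlap, 4 of them higher and 3 lower, where 22.0% of all genes were called and in 55.3% the groups did not overlap. With so few genes the counts say nothing particular to this role. The summed level was 1934 and 2030 TPM in shPHF8 libraries and 1777 and 1813 TPM in shControl libraries. ELOVL6, which lengthens saturated and monounsaturated fatty acids such as palmitate, had 102 and 109.5 TPM in shPHF8 libraries, against 54.3 and 44.9 TPM in shControl libraries. The shPHF8 mean was 213% of the shControl mean, with a log2 fold change of 1.08 ± 0.13 (SE, 95% confidence interval 0.73 to 1.44; limma, adjusted p = 0.0698). Its adjusted p was the smallest among the members, and it was called in each of the 11 other settings tried, with log2 fold changes of 0.95 to 1.22.

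FADS1, a desaturase that makes arachidonic and eicosapentaenoic acid, had 520.2 and 523 TPM in shPHF8 libraries, against 416 and 361 TPM in shControl libraries. The log2 fold change was 0.43 ± 0.09 (SE; limma, adjusted p = 0.113), and it too was called in each of the 11 other settings. FADS2, the desaturase of the preceding step, had 36.2 and 37.6 TPM in shPHF8 libraries, against 37.2 and 48.9 TPM in shControl libraries, and the groups overlapped. It was called lower only without shControl replicate 1, at a log2 fold change of -0.39 against -0.20 with all 4 libraries. Exons of FADS1 and FADS2 overlap on opposite strands by 490 bases. FASN, the fatty acid synthase that makes palmitate, had 284 and 309 TPM in shPHF8 libraries, against 208 and 238 TPM in shControl libraries. It was higher in both shPHF8 libraries, with a log2 fold change of 0.41 ± 0.10 (SE; limma, adjusted p = 0.137). The call was lost without shPHF8 replicate 2, at a log2 fold change of 0.35.

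ELOVL5, which lengthens polyunsaturated fatty acids, went the other way, with 378 and 381 TPM in shPHF8 libraries, against 422 and 425 TPM in shControl libraries. The libraries of each group lay close together, and the log2 fold change was -0.16 ± 0.05 (SE; limma, adjusted p = 0.210). The call on this small difference was lost under median-of-ratios scaling of the libraries (log2 fold change -0.14) and when any of the 4 libraries was left out (-0.16 to -0.15). ELOVL1, which lengthens saturated fatty acids of very long chain, had 30.5 and 28.3 TPM in shPHF8 libraries, against 32.9 and 40.8 TPM in shControl libraries. SCD, the desaturase that makes oleate, had 477 and 490.1 TPM in shPHF8 libraries, against 515 and 554 TPM in shControl libraries. Both were lower in both shPHF8 libraries but not called, with log2 fold changes of -0.31 for ELOVL1 and -0.14 for SCD; both were called without shControl replicate 1, at -0.46 and -0.20. ACACA, the carboxylase that makes malonyl-CoA, had 106 and 151 TPM in shPHF8 libraries, against 91.8 and 102 TPM in shControl libraries. Its groups did not overlap but the shPHF8 libraries differed from each other, and it was called without shPHF8 replicate 1 (log2 fold change 0.64) but not with all 4 libraries (0.38; limma, adjusted p = 0.346). Thus ELOVL6, FASN and FADS1 were higher in shPHF8 libraries in the same samples in which ELOVL5 was lower.

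The acyl-CoA synthetases, which activate free fatty acids, have 3 members, of which 0 were called higher and 1 was called lower. ACSL3, found on the endoplasmic reticulum and lipid droplets, had 93.3 and 91.5 TPM in shPHF8 libraries, against 121 and 111 TPM in shControl libraries. It was lower in both shPHF8 libraries, with a log2 fold change of -0.32 ± 0.09 (SE; limma, adjusted p = 0.156). The call was lost without shPHF8 replicate 1, without shPHF8 replicate 2 and without shControl replicate 1, at log2 fold changes of -0.34, -0.31 and -0.26. ACSL4, which prefers arachidonic acid, had 53.2 and 54.8 TPM in shPHF8 libraries, against 50.1 and 49.1 TPM in shControl libraries, and was not called (limma, adjusted p = 0.499). ACSL1, a form abundant in liver and fat, had 46.8 and 55.1 TPM in shPHF8 libraries, against 60.4 and 39.0 TPM in shControl libraries, and overlapped between the groups. The summed level of the 3 was 193 and 201 TPM in shPHF8 libraries and 231 and 199 TPM in shControl libraries.

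The division of a gene's TPM among its transcripts is the authors' estimate. The table lists 136 transcripts of the members, 1 for 5 members and several for the other 30. Of 125 transcripts tested for their share of the gene's TPM, 4 differed by 25 percentage points or more between group means with no overlap between groups. That is 3.2%, below the 6.04% of the 27002 transcripts tested in all genes, so the members did not stand out in this, and the transcripts are given as a description. These 4 belonged to ACACA and ACSL1. An exact 0 may be a failed estimate, so transcripts are described as listed at 0 and no fold change or test is given.

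ACACA-009 had 94.5 and 41.3 TPM in shPHF8 libraries, against 1.55 and 0 TPM in shControl libraries. ACACA-002 was listed at 0 in both shPHF8 libraries, against 67.0 and 45.5 TPM in shControl libraries. In GENCODE release 29 both run from separate starts 59349 bases apart into the same body of the gene, sharing 53 exons of the 56 of ACACA-009 and the 54 of ACACA-002, and they encode 2346 and 2288 codons. Summed by start site, the start of ACACA-009 had 96.2 and 44.1 TPM in shPHF8 libraries, against 9.47 and 0 TPM in shControl libraries. The start of ACACA-002 had 0.514 and 0.557 TPM in shPHF8 libraries, against 67.0 and 71.9 TPM in shControl libraries. The groups did not overlap at either start. The promoter sequences above hold 6 GGGCGG and 1 CCAAT matches at ACACA-009, and 0 and 2 at ACACA-002. Whether these motifs bear on the use of the starts was not tested. In shPHF8 replicate 2 a further 95.3 TPM were assigned to ACACA-012, a transcript of 23 exons from a start further downstream that was listed at 0 in the other 3 libraries. The higher gene sum of that library rested on this transcript.

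ACSL1-001, the full transcript of 21 exons and 698 codons, had 16.4 and 26.1 TPM in shPHF8 libraries, against 55.6 and 26.4 TPM in shControl libraries. ACSL1-009, with 9 exons and 294 codons, had 14.9 and 22.1 TPM in shPHF8 libraries and was listed at 0 in both shControl libraries. As a share of ACSL1, ACSL1-001 held 35.1% and 47.3% in shPHF8 libraries, against 92.0% and 67.7% in shControl libraries. The shares thus differed while the sum over ACSL1 overlapped between the groups.

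FADS1-001, the main transcript of FADS1 with 501 codons, had 463 and 462 TPM in shPHF8 libraries, against 341 and 346 TPM in shControl libraries. FADS1-002, of 360 codons, added 37.1 and 35.5 TPM in shPHF8 libraries, against 0.282 and 0 TPM in shControl libraries. Both were higher in both shPHF8 libraries. FADS1-012 had 3.50 and 11.3 TPM in shPHF8 libraries, against 61.2 and 1.72 TPM in shControl libraries, so it stood high in shControl replicate 1 alone and its groups overlapped. ELOVL6-002 had 77.0 and 82.7 TPM in shPHF8 libraries, against 39.8 and 24.3 TPM in shControl libraries. ELOVL6-001 had 25.2 and 26.8 TPM in shPHF8 libraries, against 14.5 and 20.6 TPM in shControl libraries. These transcripts encode the same number of codons, 265, from starts 23 bases apart, and both were higher in both shPHF8 libraries.

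**Figure D3:**
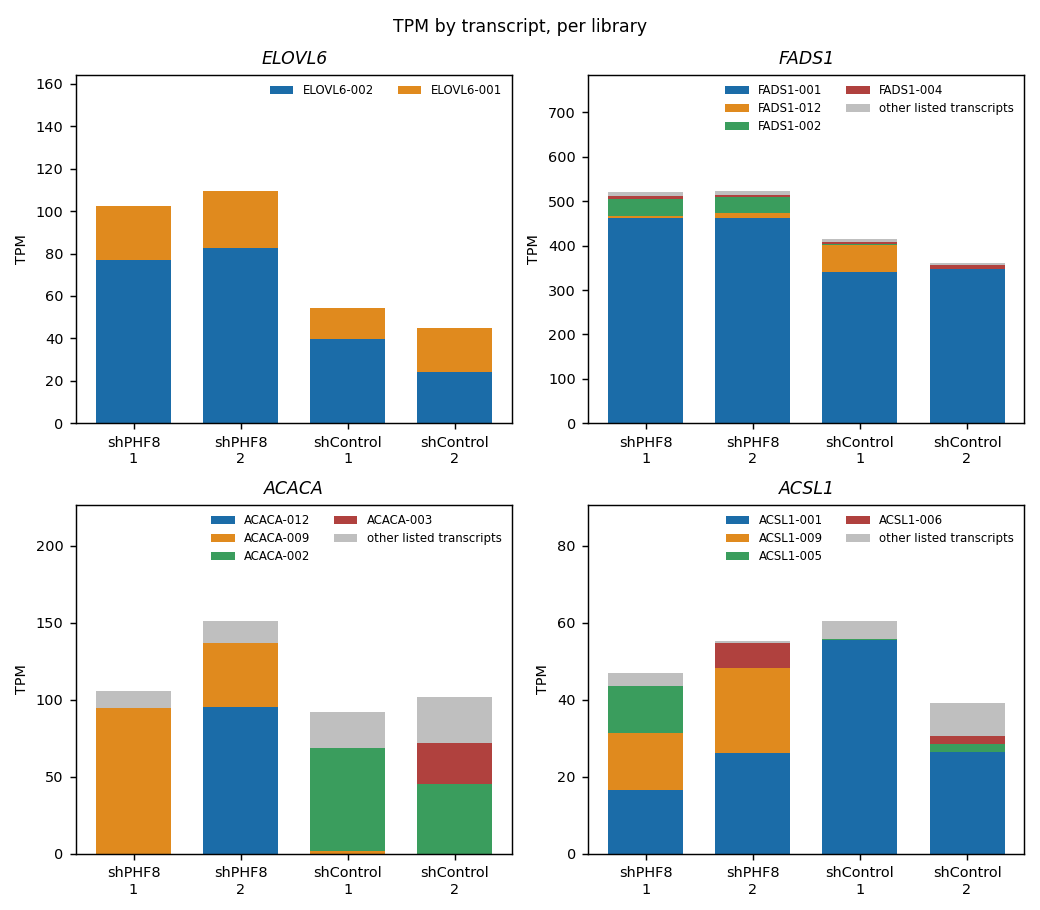
TPM of the transcripts of ELOVL6, FADS1, ACACA and ACSL1 in each library, stacked so that the height of a bar is the sum over the gene. ACACA-009 holds 89.2% of ACACA in shPHF8 1 and 27.3% in shPHF8 2, where ACACA-012 holds 63.1%. ACACA-002 holds 73.0% in shControl 1 and 44.7% in shControl 2. The ELOVL6 bars differ in height with both transcripts present in all 4 libraries.

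Genes that feed these routes or use their products were taken from a list of 93, of which 83 were in the table and tested. Of these 11 were called higher and 13 called lower in shPHF8 libraries, together 28.9%, where 22.0% of all genes were one or the other. Their median log2 fold change was 0.01, against -0.02 for all genes. The genes named for each role are up to 3 with the smallest unadjusted p under 0.05. Their calls and lack of overlap follow largely from that choice and are given as a description. The 10 genes of acetyl-CoA, malonyl-CoA and NADPH supply had 2 called higher and 4 called lower, together 60%, with a median log2 fold change of -0.25. With 10 genes, on a list chosen with earlier results known, this share is a description. SLC25A1, which exports citrate from mitochondria, had 97.7 and 88.3 TPM in shPHF8 libraries, against 44.9 and 52.8 TPM in shControl libraries (log2 fold change 0.92 ± 0.13, SE; limma, adjusted p = 0.0782). ACLY, which cuts that citrate to acetyl-CoA in the cytosol, had 171 and 172 TPM in shPHF8 libraries, against 243 and 229 TPM in shControl libraries (log2 fold change -0.46 ± 0.07, SE; limma, adjusted p = 0.0877). ACSS2, which makes acetyl-CoA from acetate, had 30.4 and 29.1 TPM in shPHF8 libraries, against 52.5 and 64.7 TPM in shControl libraries (log2 fold change -0.95 ± 0.14, SE; limma, adjusted p = 0.0878). The citrate carrier was thus higher and ACLY and ACSS2, which make acetyl-CoA in the cytosol, were lower. The groups did not overlap in any of the 3, where 55.3% of all genes did not overlap. Each was also called in every other setting that kept all 4 libraries. Given the choice by p, neither is separate support.

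Around sterols, 1 of 11 genes of other sterol and isoprenoid synthesis was called higher and 0 lower, or 9.09%, where 22.0% of all genes were called. Of 9 genes of SREBP processing and sterol enzyme degradation, 1 was called higher and 0 lower, or 11.1%. ERLIN1, a protein of the endoplasmic reticulum that binds the SREBP and SCAP complex, had 38.7 and 29.7 TPM in shPHF8 libraries, against 20.5 and 21.2 TPM in shControl libraries (log2 fold change 0.67; limma, adjusted p = 0.147). Its call was lost without shPHF8 replicate 1, without shControl replicate 1 and without shControl replicate 2, at log2 fold changes of 0.49, 0.65 and 0.70. Of 13 genes of sterol uptake, movement, efflux and storage, 1 was called higher and 3 called lower, or 30.8%. OSBP, a carrier of sterol from the endoplasmic reticulum to the Golgi, had 73.7 and 69.6 TPM in shPHF8 libraries, against 92.3 and 94.4 TPM in shControl libraries (log2 fold change -0.38; limma, adjusted p = 0.127). SOAT1, which esterifies cholesterol for storage, had 16.6 and 17.3 TPM in shPHF8 libraries, against 23.8 and 26.1 TPM in shControl libraries (log2 fold change -0.53; limma, adjusted p = 0.142). The carrier and the esterifying enzyme were lower, with no overlap between groups. The call on OSBP was lost without shPHF8 replicate 2 (-0.34), and that on SOAT1 without shPHF8 replicate 1, without shPHF8 replicate 2 and without shControl replicate 2 (-0.50, -0.56 and -0.47).

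Further elongases and desaturases, with their partners and electron carriers, numbered 12. Of these, 2 were called higher and 1 called lower, 25% where 22.0% of all genes were called. Their median log2 fold change was 0.42, and some of them were at low TPM. POR, which passes electrons from NADPH to cytochromes P450 such as CYP51A1, had 55.2 and 56.7 TPM in shPHF8 libraries, against 37.6 and 35.2 TPM in shControl libraries (log2 fold change 0.61 ± 0.10, SE; limma, adjusted p = 0.0951). HACD3, a dehydratase of the elongation cycle, had 131 and 159.6 TPM in shPHF8 libraries, against 115 and 95.8 TPM in shControl libraries (log2 fold change 0.46 ± 0.15, SE; limma). TECR, the reductase that closes the same cycle, had 85.3 and 81.3 TPM in shPHF8 libraries, against 101 and 117 TPM in shControl libraries (log2 fold change -0.38; limma, adjusted p = 0.168). HACD3 was higher and TECR lower in both shPHF8 libraries. The call on HACD3 was lost without shPHF8 replicate 2 and without shControl replicate 2, at log2 fold changes of 0.32 and 0.33. The call on TECR was lost without shPHF8 replicate 1, without shPHF8 replicate 2 and without shControl replicate 2, at log2 fold changes of -0.42, -0.35 and -0.28.

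**Figure D4:**
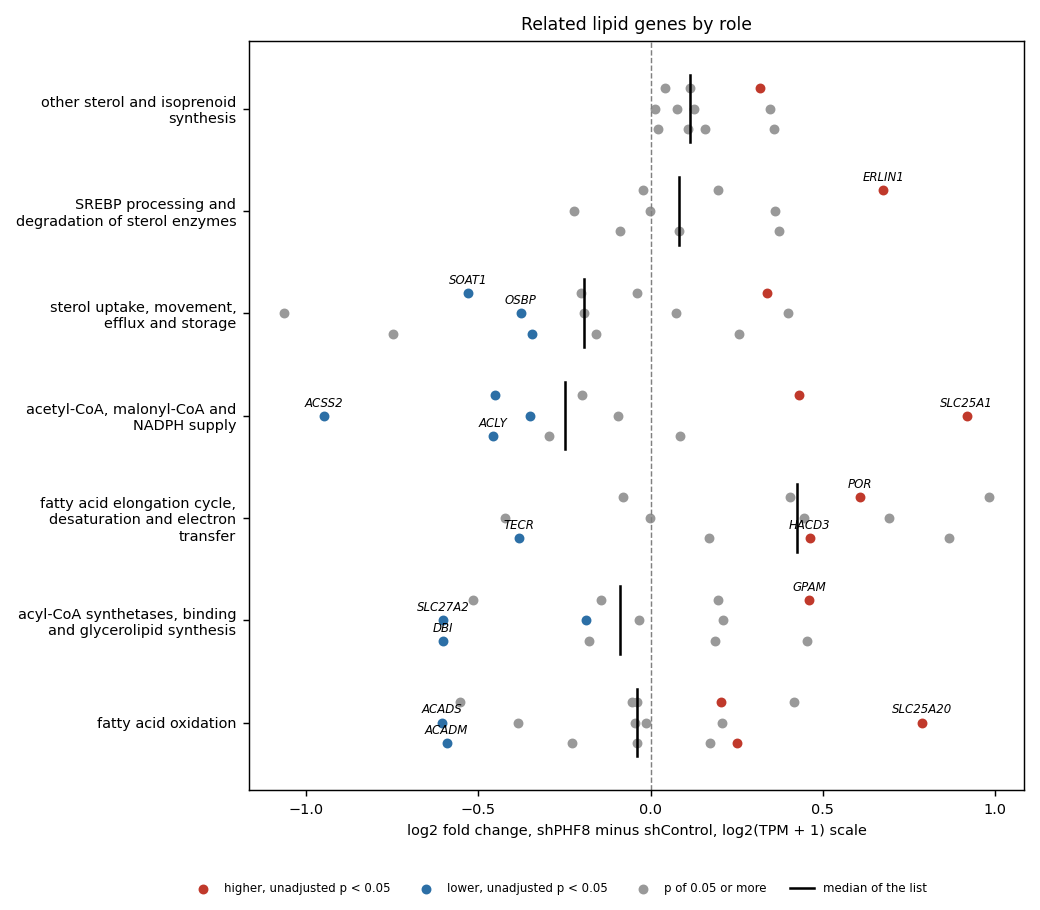
Log2 fold change, shPHF8 minus shControl in log2(TPM + 1), of each of the 83 related genes tested, by role, with the median of each list as a black bar and genes with an unadjusted limma p under 0.05 in colour. SLC25A1 at 0.92 and ACSS2 at -0.95 lie at opposite ends of the acetyl-CoA supply list.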

How the data were processed

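RNA of 4 K562 libraries was sequenced, and libraries were assigned to groups by title and treatment. The authors deposited TPM per transcript (32551 transcripts), with the gene names used here. Beside it they deposited a set of 4 further columns without a unit, treated as signal and not used. Within a library, TPM was a constant multiple of that signal (largest relative spread 2.91e-08). Over the 4 libraries the multiple was 3.1552 to 3.1872. Per the submitters' processing notes, HISAT2 2.0.4, StringTie 1.2.3 and build hg19 were used; strandedness was not given in the sources used here, nor was the annotation. TPM keep no read counts, so depth is unknown and no counting error can be given. As TPM are shares, more of an abundant transcript lowers the others, and the split between transcripts is an estimate.

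TPM were summed per gene name. Genes averaging 1 TPM or more (10972; 241 left out) were tested as log2(TPM + 1), which understates changes of low genes, with limma 3.58.1 in R 4.3.3 (trend, two-sided, residual degrees of freedom 2, prior 2.16) and Benjamini-Hochberg adjustment over all genes; calls at an unadjusted p under 0.05 are descriptive. The step was tested on simulated data. Alternatives were the pseudocount, the minimum, scaling, trend, replicate block and leaving out each library. Python 3.11.15, pandas 2.3.3 and matplotlib 3.10.9 made tables and figures. GENCODE 29 and RefSeq (GRCh38) gave transcript structures and promoters, matched by name or identifier, with no coordinates taken across builds.

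Members and lists were chosen with earlier results of these data known. All members are named; of the related genes, up to 3 per role with the smallest unadjusted p under 0.05, 17 in all, of which 2 are not reported here, nor is 1 listed marker; other genes named (markers given one by one and genes overlapping members) were picked with their values in view. The same holds for the threshold of 25 percentage points, the transcripts and promoters described, the second motif background, and the removal of 4 older symbols from the related list.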

Additional observations from a re-analysis of the deposited data

How the results depend on the processing

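Over 11 other settings the members called (an unadjusted limma p under 0.05) numbered 2 to 6 higher and 0 to 8 lower, against 6 and 3 with all 4 libraries. The extremes came from leaving out single libraries, after which a group of 1 is assumed to vary like the other: without shPHF8 replicate 1 there were 5 higher and 0 lower, without shPHF8 replicate 2 there were 2 and 1, without shControl replicate 1 there were 4 and 8, and without shControl replicate 2 there were 6 and 2. Over all genes, leaving out a library gave 592 to 1118 higher, against 1086, and 903 to 1092 lower, against 1328. The members' median log2 fold change was -0.0063 to 0.026 without a library, against 0.03. Quantile normalization gave 37 genes with an adjusted p under 0.05, and every other setting gave 0. Of the single members' values, 328 kept direction and side of the threshold, 26 lost the call, 13 gained it and 17 changed sign; the causes were not tested. Of these 17, all in members not called with all 4 libraries, 16 came from leaving out a library, which gave log2 fold changes of -0.098 to 0.33 for MVK, -0.48 to 0.15 for MVD, -0.012 to 0.072 for IDI1, -0.22 to 0.026 for SQLE, -0.15 to 0.19 for NSDHL, -0.45 to 0.27 for EBP, -0.0027 to 1.05 for SC5D, -0.0063 to 0.046 for DHCR7, -0.051 to 0.0033 for SREBF1, -0.00033 to 0.070 for SREBF2, -0.20 to 0.39 for SCAP and -0.25 to 0.37 for ACSL1. Under quantile normalization DHCR7 was at -0.022. The 9 called members kept their direction in all settings.

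The labels do not say whether same-numbered libraries were prepared together. The deviations of same-numbered libraries had a correlation of -0.029 across 10972 genes. These genes are not independent, so the value cannot decide whether the libraries are paired. With the replicate number as a block, 888 genes were higher and 1061 lower, and 5 and 2 members, with CYP51A1 and ELOVL5 no longer called; of the related genes named, HACD3 and GPAM lost the call. Without the trend HACD3 lost it. TPM keep no depth, so what depth limits cannot be stated. With 2 libraries a group, the smallest two-sided p of an exact permutation test is 0.333.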

Other observations

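Genes that burn or store fatty acids were also measured. Those named were again picked for the smallest unadjusted p in their role, so their calls and lack of overlap are a description and no separate support. Of 16 genes of fatty acid oxidation, 3 were called higher and 2 called lower in shPHF8 libraries (an unadjusted limma p under 0.05). Together these were 31.2%, where 22.0% of all genes were called, and the median log2 fold change was -0.04. SLC25A20, which carries acylcarnitines into mitochondria, had 36.2 and 35.1 TPM in shPHF8 libraries, against 18.0 and 22.8 TPM in shControl libraries (log2 fold change 0.79 ± 0.16, SE; limma, adjusted p = 0.111). ACADM, the acyl-CoA dehydrogenase for medium chains, had 114 and 119 TPM in shPHF8 libraries, against 196 and 158 TPM in shControl libraries (log2 fold change -0.59 ± 0.13, SE; limma, adjusted p = 0.122). ACADS, the one for short chains, had 18.9 and 17.7 TPM in shPHF8 libraries, against 28.1 and 28.6 TPM in shControl libraries (log2 fold change -0.60 ± 0.12, SE; limma, adjusted p = 0.111). The groups did not overlap in any of the 3, where 55.3% of all genes did not overlap. Each was called in all 11 other settings.

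Of 12 genes of acyl-CoA binding and glycerolipid synthesis, 1 was called higher and 3 called lower, 33.3% where 22.0% of all genes were called, and the median log2 fold change was -0.09. DBI, which binds long-chain acyl-CoA, had 119 and 126 TPM in shPHF8 libraries, against 177 and 196 TPM in shControl libraries (log2 fold change -0.60 ± 0.09, SE; limma, adjusted p = 0.0877). SLC27A2, an acyl-CoA synthetase for very long chains, had 44.9 and 50.8 TPM in shPHF8 libraries, against 73.2 and 72.9 TPM in shControl libraries (log2 fold change -0.60 ± 0.11, SE; limma, adjusted p = 0.103). GPAM, which adds the first acyl chain to glycerol phosphate, had 13.2 and 14.3 TPM in shPHF8 libraries, against 9.69 and 9.78 TPM in shControl libraries (limma, adjusted p = 0.202). DBI and SLC27A2 were called in all 11 other settings, while GPAM lost its call without each of the 4 libraries in turn, at log2 fold changes of 0.41 to 0.51.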
